A study of Mus musculus with 105 samples.

Results

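The Bcl-2 family genes described here are 9 of the 20756 mouse genes in both FPKM tables: Bcl2l10, Mcl1, Bcl2l1, Bcl2, Bax, Bak1, Bok, Bid and Bcl2l11. They were taken by symbol from a list of the family's main members, and all 9 were found in the FPKM tables. The family was selected on the footprint FPKM of Bcl2l10 in single FGO and MII oocytes, which were known when the list was drawn up, so the comparison of single oocytes below is a description with no test. FPKM (fragments per kilobase of transcript, scaled to the mapped total of the library) corrects for length, so levels can be set side by side between genes of a library.

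The oocytes came from C57BL/6 females, 8 or 5 weeks old, that had been given the gonadotropins PMSG (5 IU) and hCG (5 IU). Ribosome footprints, the mRNA fragments that ribosomes protect from RNase, were sequenced from 18 single wild-type full-grown oocytes (FGO) and 20 single wild-type metaphase II (MII) oocytes. MII oocytes that were Btg4 Het or Btg4 KO gave footprints (3 libraries each) and polyadenylated mRNA (2 libraries each). Poly(A) tail lengths came from 1 library each of wild-type FGO, wild-type MII and Btg4 Het MII oocytes and from 2 libraries of Btg4 KO MII oocytes. Btg4 is an adaptor that brings the CCR4-NOT deadenylase to mRNA. The sources used here do not give the Btg4 mutation or say whether Het and KO animals were littermates. The FGO of the tail library carry the label SN and the single FGO do not, so they may differ in kind. Of 105 labelled samples, 53 were used and 52 were not analysed here.

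Bcl-2 proteins decide whether the outer membrane of mitochondria is breached in the intrinsic pathway of apoptosis. Bax, Bak1 and Bok are effectors that open the membrane. Bcl2, Bcl2l1 (Bcl-xL) and Mcl1 hold them in check, and the BH3-only proteins Bid and Bcl2l11 (Bim) push the balance to the effectors. Bcl2l10 (Diva or Boo) is listed here as antiapoptotic with Bcl2, Bcl2l1 and Mcl1, but what it does in the oocyte was not tested. Bcl2l10 is known for its expression in the ovary, where its mRNA is found in oocytes. As background, FGO have stopped transcription or are about to, so that protein synthesis during maturation to MII draws on stored mRNA whose poly(A) tails are lengthened or shortened.

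Depth differed between the stages. The value of 1 read in FPKM could be recovered for 5 of the 9 genes, and relative to FGO oocyte 5 the depth of the footprint libraries was 0.402 to 1.73 in FGO (median 0.831) and 0.162 to 0.634 in MII oocytes (median 0.219). For Bcl2l1, the median worth of 1 read was therefore 2.24 FPKM in FGO but 8.46 FPKM in MII oocytes. Of 12 oocyte markers, 11 or 12 were above 0 in each FGO and 8 to 12 in each MII oocyte. MII oocytes 2 and 4 stood apart: their log2 profiles correlated with the mean FGO profile at 0.70 and 0.74 (Pearson's r across genes), against 0.28 to 0.45 for the other 18 MII oocytes. With the mean of the other MII oocytes they correlated at 0.72 and 0.65. The Btg4 gene itself measured 7009, 6346 and 6134 FPKM in Het footprints and 1148, 971 and 907 FPKM in KO footprints, and 3293 and 4774 FPKM in Het mRNA and 1754 and 2345 FPKM in KO mRNA. Every KO library was below every Het library, in the direction of the labels. Where reads are given as counts, intervals cover counting error only.

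Bcl2l10 had by far the highest footprint FPKM of the family at MII. In FGO it ranged from 0 to 100.5 FPKM with a median of 3.43, and 11 of 18 FGO had any value. In MII oocytes it ranged from 1664 to 8557 FPKM with a median of 5884, and all 20 had a value. The lowest MII oocyte lay above the highest FGO, which held for 192 (2.18%) of the 8788 genes that averaged 1 FPKM or more over the 38 oocytes. The means were 17.6 and 5240 FPKM, which gives a log2 ratio of 8.14 on the log2(mean FPKM + 1) scale. That ratio ranked 4 among the 8788 genes.

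**Figure D1:**
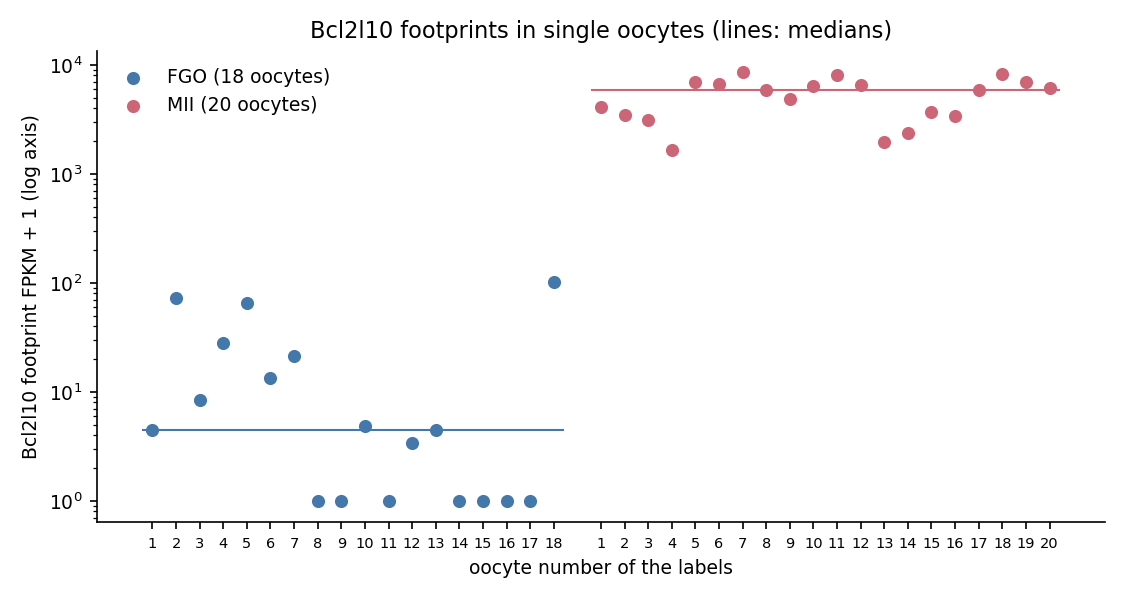
Bcl2l10 footprint FPKM + 1 on a log axis in each of 18 single FGO and 20 single MII oocytes, in the order of the labels' numbers, with a line at each stage's median. The MII oocytes lie between 1664 and 8557 FPKM and the FGO between 0 and 100.5 FPKM, with no overlap.

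Reads recovered from the values show what these levels rest on. In FGO, Bcl2l10 had 0 to 34 reads per oocyte (median 1) and 119 reads in all. In MII oocytes it had 145 to 1051 reads per oocyte (median 518.5) and 10483 in all, although their libraries were shallower. Pooled over FGO, this is 19.0 FPKM (95% exact Poisson interval 15.7 to 22.7), and over MII oocytes 4889 FPKM (4796 to 4984). The 2 MII oocytes that were closer to FGO than the others had 3454 FPKM (oocyte 2) and 1664 FPKM (oocyte 4, the lowest of all). Without them the log2 ratio was 8.22.

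Markers of other cell types also stood at different levels in FGO and MII oocytes. The summed FPKM of 16 markers of somatic follicle cells was 1.59 to 118 in FGO (median 30.9) and 0 to 55.2 in MII oocytes (median 17.7), with 15 of 16 above 0 in some FGO and 11 of 16 in some MII oocyte. Has2 was at 0 in both stages, and Fshr, Tnfaip6, Fst and Krt8 in all MII oocytes. The sum of 12 blood and immune markers was 0 to 892 in FGO (median 3.08, 11 of 12 above 0 in some oocyte, C1qa at 0) and 0 to 176 in MII oocytes (median 0.114, 9 of 12, with Hbb-b1, Hbb-b2 and Cd52 at 0). Without the oocytes that listed a hemoglobin gene, 9 FGO and 19 MII oocytes were left and the log2 ratio of Bcl2l10 was 7.48.

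Within MII oocytes, Bcl2l10 ranked 3 to 24 among all genes (median 6), and it held 0.405 to 2.31% of all footprint FPKM (median 1.57%). Over the 9 genes it took 86.8 to 100% of the summed FPKM (median 99.7%). In the 17 FGO with any value for the family its share was 0 to 83.8% (median 25.1%). Its highest MII oocyte had 5.14 times the FPKM of its lowest, but it varied less than most genes of this height. The coefficient of variation was 40.9%. The 47 genes averaging 1000 FPKM or more in MII oocytes had a median of 46.8% (range 35.0 to 259%), and 4 of them varied less than Bcl2l10. Library totals of FPKM differed too: 3673 FPKM of Bcl2l10 was 2.31% of the total in oocyte 15, and 8124 FPKM was 1.36% in oocyte 11. The part of these totals in the spread was not tested.

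FGO were uneven. The highest was oocyte 18 with 100.5 FPKM, followed by oocyte 2 with 72.1, oocyte 5 with 64.3, oocyte 4 with 27.1 and oocyte 7 with 20.3 FPKM. The other 13 FGO had at most 12.3 FPKM, and 7 of these were listed at 0. The 3 highest FGO were also the 3 highest for Btg4, with 79.4, 54.6 and 41.9 FPKM in oocytes 18, 2 and 5 against at most 11.6 FPKM in the others. Over the 18 FGO, Spearman's rho of Bcl2l10 was 0.68 with Btg4 and 0.70 with the summed FPKM of the other 191 genes whose MII oocytes all lay above all FGO. Gene by gene, rho with Bcl2l10 over FGO had a median of 0.49 for these 191 genes and of 0.34 for the 8718 genes that varied over FGO. These points share library and depth, and rho of Bcl2l10 with the relative depth was 0.067. The total FPKM of all genes also differed between FGO. A Bcl2l10 level of 3.43 FPKM was 0.000719% of this total in oocyte 1 and 0.00449% in oocyte 13. The FGO also differed in how many genes were listed at 1 FPKM or more. Oocytes 18, 2, 5, 4 and 7 had 6595 to 8371 such genes, and the 7 FGO at 0 for Bcl2l10 had 4338 to 6499. Oocyte 1 had the most (8826) with 3.43 FPKM of Bcl2l10. The parts of gene detection and of library totals in these likenesses were not tested. Over the 20 MII oocytes, rho with Bcl2l10 was 0.89 for Btg4, with a median of 0.75 for the 191 genes and 0.099 for all genes. The 191 genes were picked from these same oocytes by the step between stages that Bcl2l10 itself shows. Their rho values are therefore a description only, and library totals of FPKM also differed between MII oocytes.

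**Figure D2:**
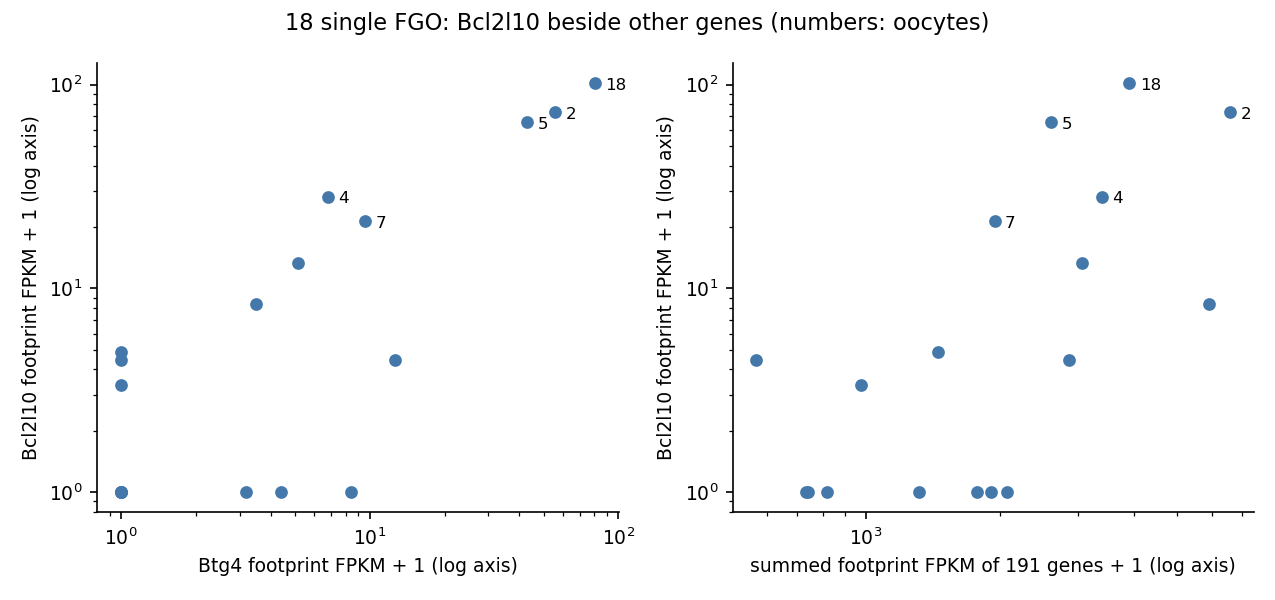
Bcl2l10 footprint FPKM + 1 in 18 single FGO against Btg4 (left) and against the sum of the other 191 genes whose MII oocytes all lay above all FGO (right), all on log axes, with the 5 FGO above 15 FPKM of Bcl2l10 numbered. Oocytes 18, 2 and 5 are highest for both Bcl2l10 and Btg4.

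The genes whose footprints followed Bcl2l10 most closely over all 38 oocytes were Oosp1 (rho 0.96), C2cd5 (0.96), Dcp1a (0.96), Oosp3 (0.96) and Slc23a2 (0.96). Oosp1 and Oosp3 encode oocyte-secreted proteins, and Dcp1a is a cofactor of mRNA decapping. Most of this likeness is the step between the stages: Oosp1 had means of 41.2 and 4397 FPKM, and Oosp3 of 7.56 and 1977 FPKM, in FGO and MII oocytes.

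The other genes listed as antiapoptotic were low at both stages. Mcl1, a short-lived protein in most cells, had 0 to 14.4 FPKM in FGO (median 1.54, above 0 in 10 of 18) and 0 to 13.5 FPKM in MII oocytes (median 0, above 0 in 4 of 20). Its 87 reads in FGO and 16 in MII oocytes pool to 3.26 FPKM (2.61 to 4.02) and 1.75 FPKM (1.00 to 2.84). Bcl2l1 had 0 to 36.4 FPKM in FGO (median 7.61, above 0 in 12 of 18) and 0 to 38.2 FPKM in MII oocytes (median 0, above 0 in 8 of 20). Its 86 and 18 reads pool to 10.3 FPKM (8.21 to 12.7) and 6.27 FPKM (3.72 to 9.91). For both genes the oocytes of the stages overlap. Their log2 ratios were -0.73 for Mcl1 and -0.48 for Bcl2l1. Bcl2 had a value in a single FGO (1.87 FPKM) and in no MII oocyte.

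The effectors were at the edge of detection. Bax had 0 to 8.30 FPKM in FGO (above 0 in 6 of 18, 12 reads in all) and was above 0 in 2 of 20 MII oocytes, at 12.5 and 14.6 FPKM from 1 read each. Pooled, this is 1.90 FPKM (0.983 to 3.32) and 0.925 FPKM (0.112 to 3.34), and the intervals overlap. Bok had a value in 1 FGO (2.12 FPKM) and 1 MII oocyte (6.60 FPKM). Bak1 was listed at 0 in all 38 oocytes, and no limit can be set because the worth of 1 read is not known for it.

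Of the BH3-only genes, Bid had a value in 2 FGO (3.32 and 17.8 FPKM) and in 1 MII oocyte (22.6 FPKM, 3 reads). Bcl2l11 had a value in 3 FGO, at 4.92, 6.89 and 42.0 FPKM. In MII oocytes it had a value in 7 of 20, at 13.1, 27.3, 34.0, 63.6, 146, 182 and 517 FPKM, so it was the gene after Bcl2l10 with the highest mean at MII. Its means of 2.99 and 49.1 FPKM give a log2 ratio of 3.65, but its median was 0 at both stages. The highest value belongs to MII oocyte 2, which was closer to FGO than most MII oocytes. Without oocytes 2 and 4 the ratio was 2.75. It was 4.89 without FGO oocyte 3, which held 42.0 FPKM, and 5.63 without the oocytes that listed a hemoglobin gene. Values of Bcl2l11 were not whole multiples of a single step, so its reads could not be counted.

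Among the 6 genes that averaged 1 FPKM or more over the 38 oocytes, 2 had a log2 ratio of at least 1 (Bcl2l10 and Bcl2l11) and 0 of at most -1, against 27.9% and 31.3% of the 8788 genes. Their median was -0.10, and that of all genes -0.15. FGO held 0 to 5 of the 9 genes above 0 and MII oocytes 1 to 5. Mcl1 was above 0 in too few oocytes for its likeness to other genes to carry weight: the closest over 38 oocytes were Arfip2 (rho 0.72), Nans (0.67), Mettl16 (0.66), Ech1 (0.66) and Cpsf7 (0.65), all of them low.

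**Figure D3:**
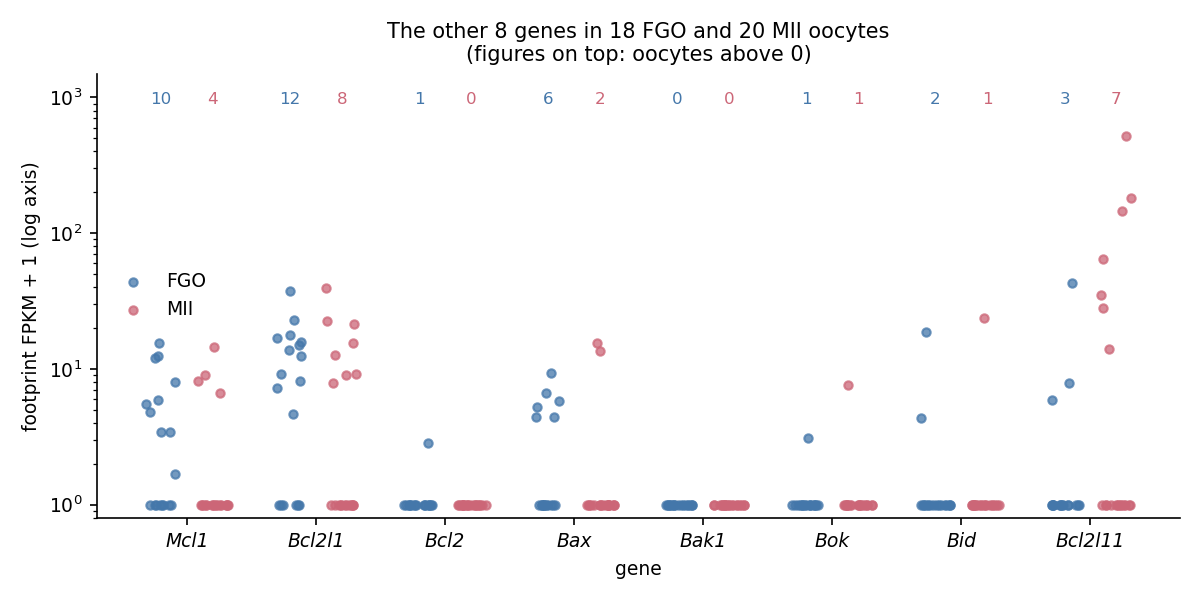
Footprint FPKM + 1 on a log axis for the other 8 genes in each single FGO and MII oocyte, with the number of oocytes above 0 on top. Bcl2l1 and Mcl1 have a value in 12 and 10 of 18 FGO and in 8 and 4 of 20 MII oocytes, and Bcl2l11 reaches 517 FPKM in an MII oocyte.

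The rest of the pathway was read from lists chosen with earlier results of these data known. Of 10 other Bcl-2 family genes above the same minimum, 6 had a log2 ratio of at least 1 and 3 of at most -1 (median 1.33). Of 15 genes downstream of the mitochondria, 5 and 5 did (median -0.14), and of 18 regulators and partners 7 and 7 (median -0.51). Over all 8788 genes these shares were 27.9% and 31.3%. Among the 6 other family genes with a ratio of at least 1, Hrk, Pmaip1, Bik and Bcl2l12 had a median of 0 at both stages. They had a value in only 2, 3, 6 and 6 of the 20 MII oocytes. The highest ratio belonged to Birc3, an inhibitor of apoptosis protein: 0 FGO had more than 29.0 FPKM (median 6.41) and MII oocytes had 151 to 542 FPKM (median 353), a log2 ratio of 5.20 with no overlap. Next were Trp53 (p53, log2 ratio 3.52, means 1.59 and 28.7 FPKM), Mdm2, its ubiquitin ligase (3.31, means 3.73 and 46.1 FPKM), and the BH3-only gene Hrk (3.0), which had a value in only 1 FGO and 2 MII oocytes. The lowest were Bnip3l, a mitophagy receptor (-2.52, means 63.6 and 10.2 FPKM), Bnip1 (-2.41), the mitochondrial channel Vdac3 (-2.20, means 53.0 and 10.8 FPKM) and Parp1 (-1.97).

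Loss of Btg4 was compared in MII oocytes, where the study's design asks what the absence of this deadenylase adaptor does to translation and mRNA. Bcl2l10 stayed the dominant gene of the family in both genotypes. Its mRNA level was 5167 and 6787 FPKM in Het libraries and 3625 and 3735 FPKM in KO libraries. Both KO libraries lay below both Het libraries, as did those of 1950 of 8865 genes tested (22%). In such bulk libraries, a lower level in every oocyte and its absence from some oocytes cannot be told apart. The means were 5977 ± 1145 and 3680 ± 77.8 FPKM (SD, n = 2 each). The change was -0.69 on the log2(FPKM + 1) scale (SE 0.33), with an adjusted p of 0.180 by limma. It ranked 3 and 4 among all genes of the Het libraries and 5 and 11 among those of the KO libraries.

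In footprints Bcl2l10 measured 20772, 14537 and 12957 FPKM in Het and 11032, 15128 and 9521 FPKM in KO libraries. The groups overlap, since KO library 2 lies above Het libraries 2 and 3. Means were 16089 ± 4132 and 11894 ± 2901 FPKM (SD, n = 3 each), a log2 change of -0.43 (SE 0.30, adjusted p of 0.512 by limma). These values rest on 1487 to 6133 reads in each Het library and 1797 to 3485 in each KO library. Footprint efficiency, the log2 ratio of footprints to mRNA, was 1.43 in Het and 1.69 in KO, above 72.6% and 75.7% of the genes that averaged 1 FPKM or more in footprints and in mRNA. The difference in efficiency was 0.25 (SE 0.42, adjusted p of 0.864 by limma). In each of the 10 libraries Bcl2l10 took 98.6 to 99.7% of the FPKM of the 9 genes. Footprint FPKM of this table and of single oocytes were normalized separately, so the higher level here is not a comparison.

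Bcl2l1 was the other gene listed as antiapoptotic with a value in every library. Its footprints were 20.2, 29.8 and 39.1 FPKM in Het and 4.58, 6.48 and 15.6 FPKM in KO libraries. Every KO library was below every Het library, as for 7.69% of the 8526 genes tested. Only 8, 6 and 6 reads in Het and 1, 2 and 5 reads in KO libraries lie behind these values. The pooled levels are 26.7 FPKM (16.3 to 41.2) and 9.44 FPKM (4.07 to 18.6), whose intervals overlap. Means were 29.7 ± 9.41 and 8.88 ± 5.87 FPKM (SD, n = 3 each), and the log2 change of -1.75 (SE 0.59) had an adjusted p of 0.180 by limma over all genes. Its mRNA did not move the same way, with 35.8 and 15.2 FPKM in Het and 43.3 and 21.1 FPKM in KO libraries, a log2 change of 0.36 (SE 0.49, adjusted p of 0.632). The sign of this mRNA change reversed when libraries were scaled to 1 median (-0.08). Footprint efficiency of Bcl2l1 was 0.22 in Het and -1.86 in KO, and the difference of -2.11 (SE 0.89) had an adjusted p of 0.332 by limma.

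Mcl1 footprints were listed at 0 in all 3 Het libraries and measured 53.3, 2.04 and 0 FPKM in the KO libraries. A single library decides this difference, since 37 of the 39 reads came from KO library 1. In the pooled Het libraries 3 reads would be 1.26 FPKM. The limma estimate was 2.45 (SE 1.43, adjusted p of 0.421). Mcl1 met the minimum for this fit through the KO libraries alone. Mcl1 mRNA was low, at 0.264 and 0.113 FPKM in Het and 0.697 and 0.656 FPKM in KO libraries, below the mean of 1 FPKM needed for the test. Bcl2 mRNA was at most 0.0439 FPKM in all 4 libraries, and its footprints were listed at 0 in all 6.

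Of the effectors, Bax mRNA measured 2.68 and 4.22 FPKM in Het and 4.69 and 10.0 FPKM in KO libraries. Both KO libraries were above both Het libraries, which 38.9% of the genes tested also showed. The log2 change was 0.85 (SE 0.43) with an adjusted p of 0.205 by limma. Bax footprints were seen in the first Het library alone (16.8 FPKM, 5 reads), and the 3 KO libraries together held 0 reads, for which the exact interval reaches 5.78 FPKM (3 reads would be 4.70 FPKM). Bok mRNA was 0 and 0.206 FPKM in Het and 0.0698 and 0 FPKM in KO libraries, and its footprints were listed at 0. Bak1 was listed at 0 in all 10 libraries, mRNA included.

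Of the BH3-only genes, Bcl2l11 had the highest footprint level after Bcl2l10: 25.5, 135 and 149 FPKM in Het and 60.9, 49.5 and 19.5 FPKM in KO libraries, with overlap. Its mRNA was 6.49 and 2.57 FPKM in Het and 2.96 and 1.31 FPKM in KO libraries. The changes were -1.03 in footprints (SE 0.79, adjusted p of 0.575) and -0.77 in mRNA (SE 0.46, adjusted p of 0.269), both by limma. With 103 FPKM of footprints beside 4.53 FPKM of mRNA, its footprint efficiency in Het was 4.51, above 98.4% of genes, and in KO it was 4.34. Reads of Bcl2l11 could not be counted, so how many reads these ratios rest on is unknown. Bid footprints were listed at 0 in Het and measured 11.9, 4.21 and 0 FPKM in KO libraries from 2, 1 and 0 reads. Bid mRNA was 0.232 and 0.165 FPKM in Het and 0.830 and 0.593 FPKM in KO libraries, too low for the test.

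**Figure D4:**
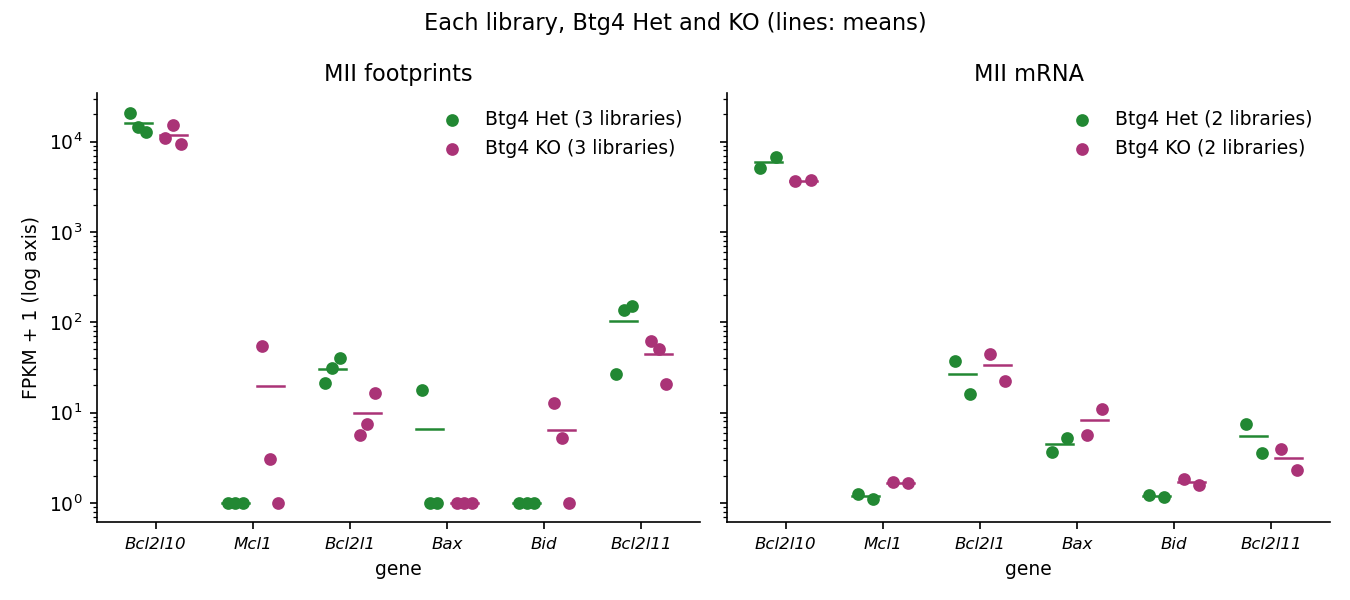
FPKM + 1 on a log axis of 6 of the 9 genes in each MII library, Btg4 Het and KO, for footprints (3 and 3 libraries) and mRNA (2 and 2 libraries), with lines at the means. Bcl2l10 lies far above the others in every library, the 3 KO footprint values of Bcl2l1 lie below the 3 Het values, and a single KO library holds most Mcl1 footprints.

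By the same limma fits over all genes, 0 of 4 of the genes tested passed in mRNA, 0 of 6 in footprints and 0 of 4 in efficiency. At an unadjusted p below 0.05 these counts were 0, 1 (Bcl2l1) and 1 (Bcl2l1). Of all genes tested in mRNA, 18.9% were called higher and 0.62% lower in KO. In footprints the shares were 3.21% higher and 0.328% lower, and in efficiency 0.853% higher and 0.447% lower. With the replicate number as a block in the fit, 3 of the 4 genes passed in mRNA: Bcl2l10, Bax and Bcl2l11. Over all 8865 genes that block called 3033 higher and 1553 lower. The mRNA numbers make only 2 pairs, and the labels do not say what they mark. The median change of the 4 genes in mRNA was -0.16, against 0.14 for all genes, and in footprints it was -0.73 for 6 genes, against 0.27. Of these 6, Mcl1 and Bid footprints were at 0 in every Het library and Bax footprints in every KO library. Each of them reached the mean of 1 FPKM through a single genotype, so the footprint median and the 0 of 6 carry little weight. FPKM are relative to each library's total: with quantile normalization or median scaling the median of all genes became -0.22 in mRNA under both and -0.14 or -0.10 in footprints. Calls over all mRNA then split into 1104 higher and 698 lower, or 1051 and 735, in place of 1677 and 55. Relative to the median of all genes, Bcl2l10 mRNA changed by -0.82 as deposited, -0.13 after quantile normalization and -0.92 after median scaling. Bcl2l10 footprints changed by -0.71, 0.05 and -0.83, and Bcl2l1 footprints by -2.02, -2.21 and -2.10.

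Other genes of the pathway did pass the test in mRNA, all of them higher in KO. Calls over all 8865 genes also lay mostly on that side, with 1677 (18.9%) higher and 55 (0.62%) lower. Of 43 pathway genes tested, 11 were called higher. Of 8 other Bcl-2 family genes tested 4 rose and 0 fell (median change 0.85), of 16 downstream genes 2 rose and 0 fell (median -0.10), and of 19 regulators and partners 5 rose and 0 fell (median -0.14). Bcl2l12 rose from 0.469 and 1.5 FPKM to 10.1 and 10.9 FPKM, a log2 change of 2.59 (SE 0.39, adjusted p of 0.00313 by limma). The mitophagy receptor Bnip3l had 36.8 and 39.0 FPKM in Het and 97.9 and 113 FPKM in KO libraries and rose by 1.45 (adjusted p of 0.0109), and Bnip1 rose by 1.74 (adjusted p of 0.0148). The channel Vdac3, with 39.0 and 41.3 FPKM in Het and 145 and 224 FPKM in KO libraries, rose by 2.14 (adjusted p of 0.00319). Tmbim6, known as Bax inhibitor 1, had 35.7 and 26.7 FPKM in Het and 135 and 86.8 FPKM in KO libraries and rose by 1.78 (adjusted p of 0.00906). Tmbim4 (1.52, adjusted p of 0.0167), the mitochondrial nuclease Endog (1.17, adjusted p of 0.0248) and the F-box gene Btrc (1.36, adjusted p of 0.0265) also rose. Vdac3 passed under all 11 alternatives. Without KO library 2 the adjusted p was 0.0789 for Bnip3l, 0.0872 for Bnip1, 0.142 for Tmbim4 and 0.221 for Btrc. Without Het library 1 it was 0.0886 for Endog, and for Btrc it was 0.0806 without Het library 2 and 0.0777 without KO library 1. Under scaling it was 0.0752 for Bnip3l and 0.0654 for Btrc with libraries at 1 median, and 0.0690 for Endog and 0.0620 for Btrc after quantile normalization. With no filter on low values, where 15509 genes are tested, all but Vdac3 and Bnip3l of these 8 lost the call (0.0520 to 0.0828). The sum of 12 blood and immune markers was 0.891 to 1.24 FPKM in the Het and 2.25 to 22.9 FPKM in the KO mRNA libraries, with the 4 hemoglobin genes at 0. The sum of 16 follicle markers was 15.8 to 17.4 FPKM in Het and 14.9 to 15.2 FPKM in KO. Their part in these changes was not tested.

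In footprints 1 of 17 regulators and 0 of 9 other Bcl-2 family genes rose, and 0 fell. Over all genes the shares were 3.21% and 0.328%. Tmbim6 rose from 143, 58.3 and 69.9 FPKM to 1187, 1127 and 1031 FPKM, a log2 change of 3.72 (SE 0.40, adjusted p of 0.0108 by limma). Without KO library 1, 2 or 3, no gene of the whole table passed: the adjusted p of Tmbim6 was then 0.0701, 0.0904 or 0.0827. In efficiency 0 of 37 pathway genes tested passed by limma, and 5 had an unadjusted p below 0.05.

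Tail lengths were given for 3 of the 9 genes. Bcl2l10 had a tail of 31.55 nt in FGO, among the shortest of that library: 3.05% of 6353 genes were shorter, and the median gene had 54.06 nt. In wild-type MII oocytes its tail was 79.99 nt, longer than 83.8% of 229 genes (median 47.45 nt). The difference of 48.44 nt between these libraries was above that of 91.5% of the 224 genes with a value in both, whose median change was -7.575 nt. In Btg4 Het MII oocytes the tail was 130.62 nt, longer than 90.5% of 598 genes (median 73.44 nt). The 2 control MII libraries thus differ by 50.63 nt for this gene. Tails of the Het library were long in general: 73.5% of 170 genes with a value in both were longer than in wild-type MII oocytes (median difference 14.915 nt).

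In the Btg4 KO libraries the Bcl2l10 tail was 71.81 and 74.25 nt. The difference from the Het library was -58.81 and -56.37 nt, and that from wild-type MII oocytes -8.18 and -5.74 nt, while the 2 KO libraries differed by 2.44 nt. Relative to Het, the Bcl2l10 difference was below that of all but 8.12% and 6.82% of the genes with a value in both libraries. Of 272 genes with a value in Het and both KO libraries, 51.8% were shorter in both KO libraries and 26.1% longer in both. Against wild-type MII oocytes the genes went the other way. In KO libraries 1 and 2, 65.4% of 162 and 62.6% of 182 genes were longer (median differences 8.735 and 8.24 nt). In the authors' deposited table, merged columns give 118.56 nt for wild-type and Het MII oocytes and 73.24 nt for KO.

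Bcl2l1 differed from Bcl2l10 in FGO, where its tail of 60.59 nt was longer than 68.6% of genes. In MII oocytes it was 53.31 nt in Het, where 24.4% of genes were shorter, and 38.22 and 20.89 nt in the KO libraries. No value was given for it in wild-type MII oocytes. The difference between the KO libraries (-17.33 nt) is larger than that between Het and KO library 1 (-15.09 nt). Bax had a value in FGO only, 32.05 nt, close to Bcl2l10 and longer than 3.37% of genes. With 1 library in 3 of the 4 groups, no test was made on tails.

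**Figure D5:**
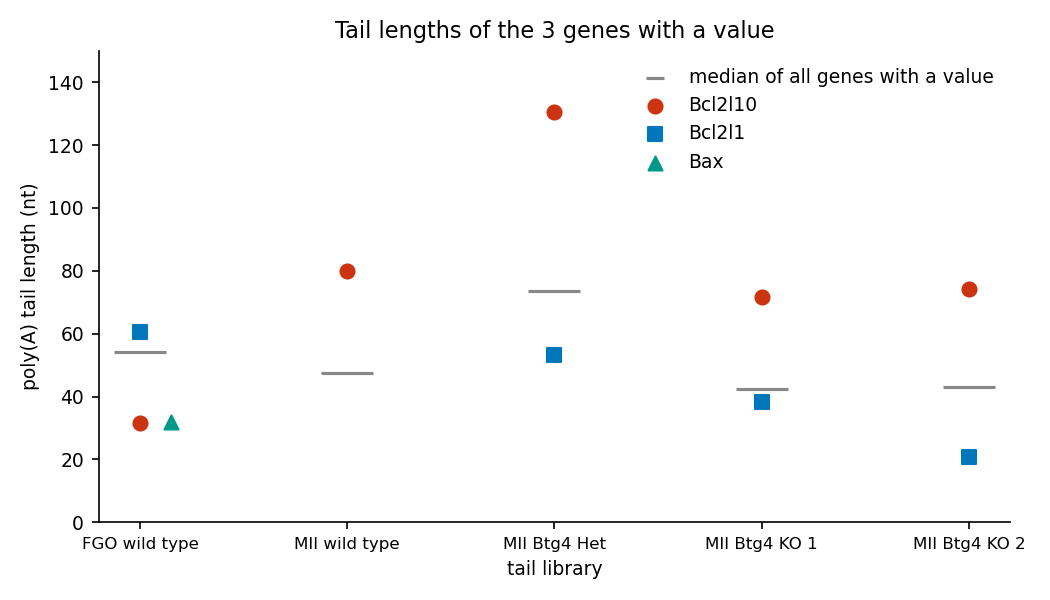
Poly(A) tail length in nt of Bcl2l10, Bcl2l1 and Bax in each of 5 tail libraries, with a dash at the median of all genes with a value in that library. Bcl2l10 goes from 31.55 nt in FGO to 79.99 and 130.62 nt in the wild-type and Het MII libraries and 71.81 and 74.25 nt in the KO libraries.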

How the data were processed

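The authors deposited footprints and mRNA as FPKM for each gene and tails as a length in nucleotides, where 0 was taken as no value. The submitters' processing notes name Cufflinks 2.2.1, STAR 2.5.3a, Bowtie2 2.2.2, Trim Galore 0.4.2 and cutadapt 1.14, with mm9 and hg19 as builds. The depth of mRNA and tail libraries is unknown. In the Btg4 table, 231 repeated rows were dropped.

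Btg4 KO and Het libraries were compared with limma 3.58.1 in R 4.3.3 (eBayes with trend, two-sided) on log2(FPKM + 1), which understates changes of low genes. Genes that averaged below 1 FPKM were left out, and adjusted p (Benjamini-Hochberg over all genes) below 0.05 was called. Efficiency is the interaction of genotype and assay. Labels name no separate animals, so p-values measure only how far these samples differ, and that spread may be technical. Each stage of single oocytes counted as 1 sample. Libraries with the same replicate number deviated together, with r across genes of 0.255, 0.422 and 0.162 in footprints and 0.627 in mRNA. The numbers may therefore mark pairs, but the labels do not say so. The p-values of the Results are from fits without pairing. A block of replicate numbers was an alternative. It changed 0 calls of the 9 genes in footprints and gave 3 calls in place of 0 in mRNA.

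Reads were recovered where a gene's FPKM below 60 reads were whole multiples of 1 step within 0.03 reads in at least 5 libraries. The fits and the recovery were tested on simulated data. The 9 genes and the lists (18 other family genes, 19 downstream genes, 21 regulators, and markers) were chosen with earlier results of these data known. Named from the lists were the 4 highest and 4 lowest single-oocyte ratios, up to 8 genes with the lowest adjusted p in each fit (1 result is not reported here), and the 5 genes most like Bcl2l10 and Mcl1. Alternatives were other pseudocounts, filters and scalings, the block, and leaving out samples. Python 3.11.15 was used for the other steps.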

Additional observations from a re-analysis of the deposited data

How the results depend on the processing

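No alternative put any of the 9 genes past the threshold in footprints or efficiency. In mRNA, the replicate number as a block gave 3 calls in place of 0, with 1 gene higher and 2 lower in KO: Bcl2l10 (-0.69, adjusted p of 0.0315 by limma), Bcl2l11 (-0.77, adjusted p of 0.0225) and Bax (0.85, adjusted p of 0.0195). The mRNA numbers make only 2 pairs, whose deviations correlate at 0.627, and the labels do not say what they mark. With the block, calls over all genes numbered 3033 higher and 1553 lower, in place of 1677 and 55. In footprints and efficiency the block gave 0 calls among the 9 genes. No paired analysis was possible for single oocytes because the labels name no animals or pairs for them. The mRNA change of Bcl2l1 reversed after median scaling (-0.083) and without single libraries (-0.23 without Het library 2, -0.14 without KO library 1, at most 0.95 over alternatives). The efficiency change of Bcl2l11 was reversed without footprint libraries Het 2 (0.12), Het 3 (0.19) or KO 3 (0.23) and mRNA libraries Het 2 (0.28) or KO 1 (0.14). With medians over oocytes, 1 gene had a single-oocyte log2 ratio of at least 1 and 2 of at most -1 (Mcl1 -1.34, Bcl2l1 -3.11), and Bcl2l11 had a ratio of 0. With oocytes scaled to 1 median, 2 genes were at most -1 (Mcl1 -1.40, Bcl2l1 -1.37). Bid turned on single oocytes, with -1.12 without MII oocyte 10 and 0.83 without FGO oocyte 3. Without the oocytes that listed a hemoglobin gene it was 1.13, and 3 genes in place of 2 then had a ratio of at least 1. The cause of these shifts was not tested. Few reads limit the precision of Bcl2l1, Mcl1, Bax and Bid in MII footprints, with 2 to 18 reads each over 20 oocytes.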
